A study of Mus musculus with 6 samples.

Results

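The genes described here are the numbered zinc finger protein genes (symbols of the form Zfp followed by digits) that lie on mouse chromosomes 12 and 13. A gene was a member when its Ensembl identifier in the count table mapped, in GENCODE mouse release 39 on GRCm39, to a protein-coding gene with such a symbol on either chromosome, and when it had a read in at least 1 library. This gave 40 members among 55416 rows of the table, 30691 of which held a read. Chromosome 12 held 4 of them and chromosome 13 held 36, and 335 genes with such symbols on other chromosomes served as the background family. Within this rule, members were selected on their name, their position and the presence of a read. The group itself was proposed with earlier KO against WT results of these data known, so its share of called genes is not that of an unselected group. None of the rows with such symbols on these chromosomes was at 0 in every library. The members nearest to that limit were Zfp708, with 1 read in WT replicate 1 and 1 in KO replicate 3, and Zfp366, with 3 reads in WT replicate 2 only.

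RNA-seq was performed on epiblast-like cells (EpiLCs), an in vitro counterpart of the formative epiblast. Wild-type (WT) 46C mouse embryonic stem cells, which carry a Sox1-GFP reporter, and a 46C line in which Oct6 (Pou3f1) had been mutated with CRISPR/Cas9 (KO) were each differentiated for 48 h on fibronectin in N2B27 medium. Per the sample labels the medium held Activin A at 20 ng/ml, bFGF at 12 ng/ml and 1% of the serum replacement KSR, whereas the series description gives both factors in µg/ml. The KO line was a single clone with a homozygous insertion of 1 nucleotide, so the mutation and other properties of that clone cannot be told apart. Each genotype had 3 libraries, described as paired biological replicates, with 10995505 to 14680930 counted reads. Pou3f1 itself had 160.9, 142.6 and 122.1 CPM (reads per 1000000 counted, after TMM scaling) in the WT libraries and 127, 140.8 and 128.5 CPM in the KO libraries. A frameshift insertion need not lower the transcript level, so this gene did not check the labels.

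Most of these genes encode KRAB zinc finger proteins. Such a protein binds DNA through an array of C2H2 zinc fingers, in which pairs of cysteines and histidines hold a zinc ion, and its KRAB domain recruits the co-repressor KAP1 (Trim28). KAP1 in turn brings the histone methyltransferase Setdb1, HP1 proteins and DNA methylation, and in pluripotent cells this machinery is known for silencing retrotransposons and protecting imprints. The genes arise by tandem duplication and therefore lie in clusters of closely related copies. Rsl1, which regulates male-specific gene expression in the mouse liver, lies among those of chromosome 13.

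Joined across gaps of at most 1 Mb, with at least 3 members required, the members of chromosome 13 formed 2 clusters, and the neighbouring pair Zfp72 and Zfp825 was left outside. The small cluster held 4 members (Zfp808 to Zfp1008, chr13:62277700-62771996), and the large cluster held 24 (Zfp369 to Zfp273, chr13:65426610-67975804), of which 7 were on the plus strand and 17 on the minus strand. The remaining 12 members, including all those of chromosome 12, lay outside clusters. A coding sequence of usable length was annotated for 38 members, and the KRAB pattern searched for was found in 30 of them, including all 22 of the large cluster and all 4 of the small cluster. The 22 large-cluster proteins had a median of 14.5 zinc fingers (3 to 23). The 12 members outside clusters had a median of 5.5, and 4 of them matched the KRAB pattern, namely Zfp386, Zfp184, Zfp169 and Zfp825. The pattern can miss a KRAB domain. On other chromosomes, Zfp568, Zfp445 and Zfp819, known as KRAB zinc finger genes, did not match it. Among those without a match were Zfp131, a BTB-domain protein, Zfp346, which binds double-stranded RNA, and Zfp366, known from dendritic cells.

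The first zinc finger of 3 large-cluster members shows the repeated unit. Capitals mark the codons of the cysteines and histidines that hold the zinc. The positions (GRCm39) are chr13:67556698-67556760 on the minus strand for Zfp459, chr13:66269064-66269126 on the plus strand for Zfp997 and chr13:66580191-66580253 on the minus strand for Zfp998, all within coding exons.
Zfp459: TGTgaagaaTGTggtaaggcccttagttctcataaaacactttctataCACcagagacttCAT
Zfp997: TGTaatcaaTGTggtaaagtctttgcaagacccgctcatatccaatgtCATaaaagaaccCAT
Zfp998: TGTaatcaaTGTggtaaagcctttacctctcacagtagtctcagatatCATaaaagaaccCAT
Over these 63 bases Zfp997 and Zfp998 were the same at 48. With 19 and 14 zinc fingers in the 2 proteins, which were not aligned for this, the first ones need not correspond. The proteins of Zfp997 and Zfp998 were 87.1% identical over 464 aligned residues. Each was the other's closest relative among numbered Zfp genes and the coding genes lying within the 2 clusters. Other proteins were not compared. Higher identities were seen between Zfp85 and Zfp273 (95.6%), Zfp808 and Zfp934 (92.4%) and Zfp455 and Zfp456 (90.6%).

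The 250 bases before the annotated start of each member's main transcript were read from GRCm39 to see what the promoters shared. Many of the large cluster held the word TTCCCACAA, or TTGTGGGAA on the other strand, close to the start. This word was chosen after the sequences had been compared. It is shown in capitals for 2 members that rose in KO EpiLCs (Zfp595 and Zfp493) and 2 that passed no test (Zfp458 and Zfp759), followed by the promoters of Zfp459 and Zfp997, which had the largest changes and did not hold it. The windows are chr13:67480663-67480912 (minus strand), chr13:67927550-67927799 (plus), chr13:67417202-67417451 (minus), chr13:67276042-67276291 (plus), chr13:67569580-67569829 (minus) and chr13:66261044-66261293 (plus), in the order printed, and at most 2 bases of any window fell in an annotated exon.
Zfp595: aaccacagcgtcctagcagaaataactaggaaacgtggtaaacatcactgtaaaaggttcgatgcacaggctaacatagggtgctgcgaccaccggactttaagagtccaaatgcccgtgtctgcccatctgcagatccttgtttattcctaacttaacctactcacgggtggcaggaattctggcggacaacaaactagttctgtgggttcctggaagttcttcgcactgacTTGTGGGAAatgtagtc
Zfp493: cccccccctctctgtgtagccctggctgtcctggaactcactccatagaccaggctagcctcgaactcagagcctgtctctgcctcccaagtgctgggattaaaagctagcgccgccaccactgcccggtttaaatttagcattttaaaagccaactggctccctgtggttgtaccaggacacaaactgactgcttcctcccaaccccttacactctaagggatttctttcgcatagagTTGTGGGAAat
Zfp458: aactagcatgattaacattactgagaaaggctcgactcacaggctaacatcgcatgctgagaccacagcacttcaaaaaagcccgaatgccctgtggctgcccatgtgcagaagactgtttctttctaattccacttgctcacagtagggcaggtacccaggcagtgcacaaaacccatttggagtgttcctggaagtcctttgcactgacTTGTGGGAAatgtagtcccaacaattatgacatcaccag
Zfp759: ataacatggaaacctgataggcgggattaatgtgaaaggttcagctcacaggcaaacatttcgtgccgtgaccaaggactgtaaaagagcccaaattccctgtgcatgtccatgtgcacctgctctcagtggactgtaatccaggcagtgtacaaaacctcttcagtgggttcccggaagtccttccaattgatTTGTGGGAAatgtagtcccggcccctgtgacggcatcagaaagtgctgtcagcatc
Zfp459: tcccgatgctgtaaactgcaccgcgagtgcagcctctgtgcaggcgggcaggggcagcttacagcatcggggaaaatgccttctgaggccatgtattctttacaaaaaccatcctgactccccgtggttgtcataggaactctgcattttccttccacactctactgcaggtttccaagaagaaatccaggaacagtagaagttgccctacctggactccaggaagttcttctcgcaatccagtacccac
Zfp997: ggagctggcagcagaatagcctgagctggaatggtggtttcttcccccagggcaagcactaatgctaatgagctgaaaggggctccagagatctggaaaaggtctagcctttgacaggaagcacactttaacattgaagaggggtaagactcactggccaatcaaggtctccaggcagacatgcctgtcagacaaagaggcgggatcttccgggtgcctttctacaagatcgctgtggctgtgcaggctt
The word was found in 9 of the 24 large-cluster promoters (37.5%), in 1 of the 335 numbered Zfp promoters of other chromosomes (0.299%) and in 84 of all 21627 protein-coding promoters (0.388%). The large-cluster carriers were Zfp712, Zfp708, Zfp759, Zfp458, Zfp457, Zfp595, Zfp953, Zfp738 and Zfp493. The windows of Zfp953, Zfp58, Zfp748, Zfp65 and Zfp85 lay wholly within an annotated exon, so not all 24 are plain upstream sequence. In Zfp458, Zfp759 and Zfp595 it was directly followed by ATGTAGTC (GACTACAT on the other strand), which 9 large-cluster promoters held against 0.953% of all promoters. The octamer ATGCAAAT, the word bound by POU factors such as Oct6, or its reverse complement was in 0 of the 40 windows. It was in 2.99% of the 335 numbered Zfp promoters of other chromosomes and in 1.5% of all 21627. At such shares 40 windows can easily hold none, so its absence says little about the members. These are matches of letters and not sites.

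In KO EpiLCs the members that changed all rose. With edgeR's quasi-likelihood test and Benjamini-Hochberg adjustment over 15746 genes, 17 of the 37 tested members (45.9%) were higher in KO EpiLCs at an adjusted p below 0.1 and 0 were lower. Over all genes tested, 24.3% passed in either direction, 11.8% being higher and 12.5% lower in KO EpiLCs. An unadjusted p below 0.05 was reached by 0 members in the lower direction, and DESeq2 also called 0 lower. The 17 were Zfp459, Zfp997, Zfp85, Zfp999, Zfp1008, Zfp953, Zfp998, Zfp273, Zfp595, Zfp493, Zfp748, Zfp386, Zfp808, Zfp65, Zfp277, Zfp738 and Zfp367, in decreasing order of fold change, from 2.67-fold to 1.24-fold. Of the 17, Zfp459 and Zfp997 exceeded a log2 fold change of 1, and 2.92% of all genes passed both this size and the adjusted p in this direction. The median log2 fold change of the 37 tested members was 0.35 against 0.00 over all genes. The 3 KO libraries all exceeded the 3 WT libraries for 19 of the 37 members, 16 of which were among the 17, as against 16.6% of all genes. The count was 10 without KO replicate 1, 10 without WT replicate 1 and 11 without WT replicate 2, and those still called in every such fit and every other alternative were Zfp459, Zfp997, Zfp85, Zfp1008, Zfp953, Zfp998, Zfp493 and Zfp748.

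**Figure D1:**
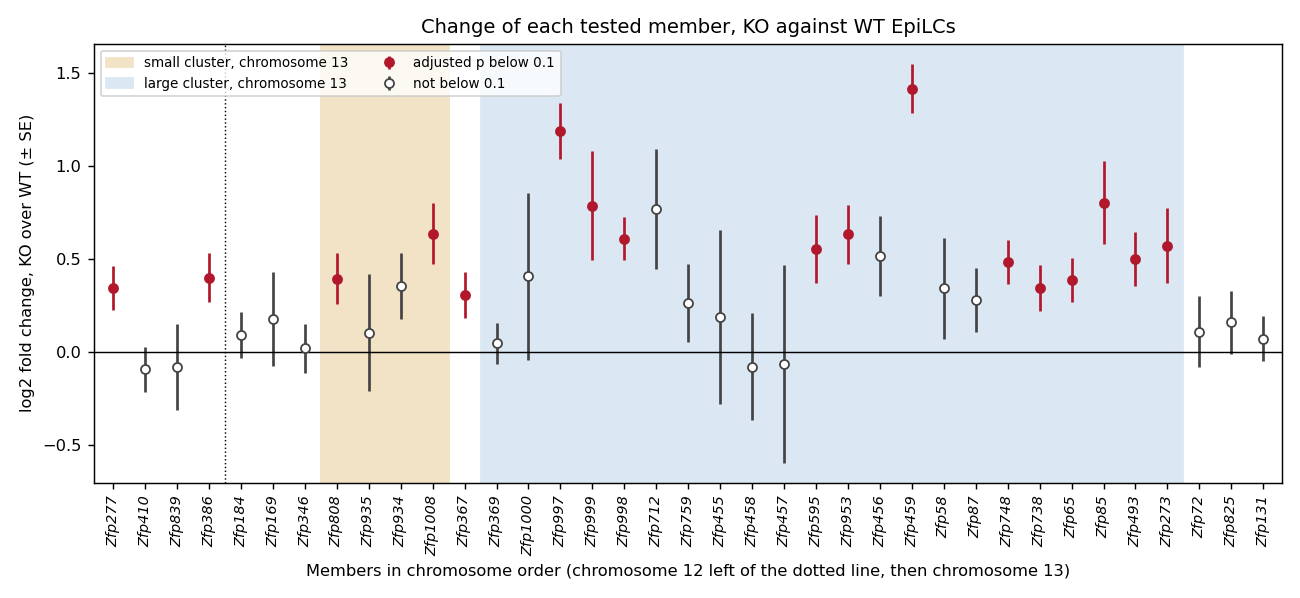
Each point is the log2 fold change (KO over WT, edgeR) of 1 of the 37 tested members, with its standard error, in chromosome order; shading marks the 2 clusters and filled points the 17 members with an adjusted p below 0.1. All filled points lie above 0, and both members above 1, Zfp997 and Zfp459, are in the large cluster.

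The rise was seen in each pair of libraries but was smaller in the third. The median log2 ratio of the 37 members, KO over the WT library of the same number with 0.5 CPM added, was 0.48 in pair 1, 0.47 in pair 2 and 0.13 in pair 3, and 33, 33 and 28 members were higher. Over all genes the same medians were -0.01, 0.01 and 0.00. Summed over the 24 large-cluster members, the level was 333.8, 323.9 and 378.3 CPM in the WT libraries (345.3 ± 29, SD, n = 3) and 523.7, 530.9 and 479.9 CPM in the KO libraries (511.5 ± 27.6, SD, n = 3). These totals did not overlap, WT replicate 3 being the highest of the WT and KO replicate 3 the lowest of the KO. Summed over the 8 members of chromosome 13 outside clusters, the level was 183.1, 166.1 and 193.9 CPM in WT and 207.9, 206.2 and 182.3 CPM in KO EpiLCs, and the groups overlapped.

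Zfp459 changed most. Its level was 17.99, 23.45 and 22.73 CPM in the WT libraries and 48.94, 63.8 and 58.52 CPM in the KO libraries. The lowest KO library was thus well above the highest WT library. The log2 fold change was 1.42 ± 0.13 (SE, adjusted p = 8.3e-07, edgeR). The annotated Zfp459 protein had 267 residues and 3 zinc fingers, the fewest of the large cluster, and 99.6% of its exonic stretches of 100 bases occurred once in the genome.

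Zfp997 had 15.45, 10.68 and 14.07 CPM in WT and 34.6, 29.78 and 27.91 CPM in KO EpiLCs, with no overlap. Its log2 fold change was 1.19 ± 0.15 (SE, adjusted p = 2.2e-05, edgeR). Only 5.87% of its exonic stretches of 100 bases were unique in the genome, so reads of near-identical copies could be counted here or lost, and how reads with several alignments were counted was not stated. Its neighbour Zfp998 had the highest level of all members per kb of exon (29.5 CPM per kb, ahead of Zfp999 with 12.1 and Zfp459 with 10.3). It was at 86.2, 71.91 and 94.77 CPM in WT and 136, 137.3 and 113.5 CPM in KO EpiLCs. All KO libraries were again above all WT libraries, and the log2 fold change was 0.61 ± 0.11 (SE, adjusted p = 7.8e-04, edgeR), with 76.9% of its stretches unique. Zfp999, an annotated exon of 255 bases between them, rose from 1.94, 2.829 and 2.029 CPM to 3.565, 4.937 and 3.159 CPM, a log2 fold change of 0.79 ± 0.29 (SE, adjusted p = 0.0677, edgeR), and 67.9% of its stretches were unique. It was not called with DESeq2 or without KO replicate 1, KO replicate 2, WT replicate 1 or WT replicate 3, with log2 fold changes of 0.58 to 0.96 over the fits that left out 1 library.

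At the distal end of the large cluster, 6 tested members in a row rose: Zfp748, Zfp738, Zfp65, Zfp85, Zfp493 and Zfp273, over 289.4 kb. The row is unbroken among members only. Between Zfp748 and Zfp738 lie the non-member zinc finger genes Zfp729b (0.24, adjusted p = 0.221, edgeR), which passed no test, and Zfp729a (0.34), which rose. Zfp85 had 3.433, 4.015 and 5.547 CPM in WT and 7.616, 7.02 and 8.199 CPM in KO EpiLCs (log2 fold change 0.80 ± 0.22, SE, adjusted p = 0.0147, edgeR). Zfp748, whose annotated protein has the most zinc fingers of all members (23), had 36.12, 36.23 and 43.83 CPM in WT and 56.39, 58.78 and 47.76 CPM in KO EpiLCs (0.49 ± 0.12, SE, adjusted p = 0.0068, edgeR). Neither gene's groups overlapped, and WT replicate 3 was the highest WT library for both. Zfp493 moved from 12.91, 14.05 and 15.9 CPM to 21.31, 21.06 and 18.5 CPM (0.50 ± 0.15, SE, adjusted p = 0.0192, edgeR). Zfp273 moved from 4.851, 5.11 and 6.291 CPM to 8.345, 8.872 and 7.07 CPM (0.57 ± 0.20, SE, adjusted p = 0.0546, edgeR). Zfp65 (0.39) and Zfp738 (0.34) rose least of the run. The calls of Zfp273, Zfp65 and Zfp738 were lost without KO replicate 1 or WT replicate 2, and those of Zfp273 and Zfp738 also without KO replicate 2 or WT replicate 1. Zfp738 was not called without KO replicate 3 or with no filter, and Zfp273 not with DESeq2. With each library left out in turn, their log2 fold changes were 0.49 to 0.70 (Zfp273), 0.30 to 0.46 (Zfp65) and 0.30 to 0.41 (Zfp738).

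Zfp595 and Zfp953, neighbours on the minus strand that both hold the shared promoter word, also rose. Zfp953 had 11.49, 14.87 and 16.64 CPM in WT and 21.71, 24.92 and 20.16 CPM in KO EpiLCs, which gave a log2 fold change of 0.63 ± 0.16 (SE, adjusted p = 0.00745, edgeR). Zfp595 had 7.314, 7.939 and 11.36 CPM in WT and 13.69, 12.65 and 12.94 CPM in KO EpiLCs, which gave a log2 fold change of 0.55 ± 0.18 (SE, adjusted p = 0.0404, edgeR), lost without KO replicate 1, WT replicate 1 or WT replicate 2 (0.42 to 0.78 over the fits that left out 1 library). Neither gene's groups overlapped. Zfp457 and Zfp458, next to them and holding the same word, were at 0.27 to 1.19 CPM and at 2.43 to 3.10 CPM over the 6 libraries, with log2 fold changes of -0.06 ± 0.53 and -0.08 ± 0.29 (SE) that passed no test. Of the 8 tested carriers of the word in the large cluster, 4 rose (Zfp595, Zfp953, Zfp738 and Zfp493). Of all 22 tested members there, 12 rose (54.5%, against 11.8% of all genes), so carriers were not called more often. Among all protein-coding genes, 12 of 53 tested carriers rose and 4 fell.

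**Figure D2:**
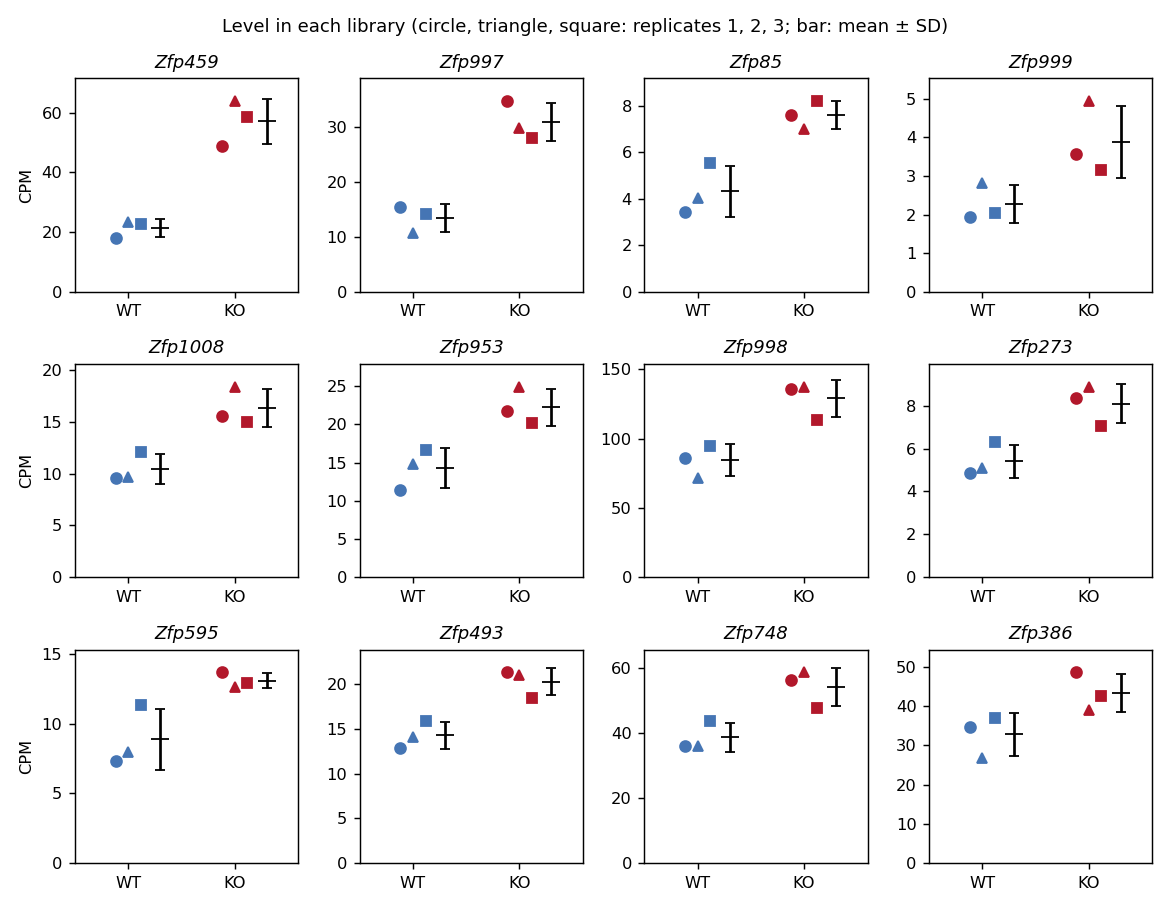
Level in CPM of the 12 members with the largest fold changes among those called, in each WT and KO library (symbols mark replicate numbers 1, 2 and 3) with mean ± SD beside them. In every panel the KO points lie above the WT points, with the widest separation for Zfp459 and Zfp997.

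The large cluster as a whole had 12 of 22 tested members higher in KO EpiLCs (54.5%, against 11.8% of all genes) and a median log2 fold change of 0.49. Calls fell on both strands, 3 of 7 tested on the plus and 9 of 15 on the minus strand. The members that passed no test were mostly of low level. Of the 11 tested members with a mean of at least 10 CPM, 9 were called, and of the 11 below 10 CPM, 3 were called, with standard errors of the log2 fold change of 0.11 to 0.18 and 0.20 to 0.53. The pair not called at the higher levels was Zfp369, which encodes a partner of the p75 neurotrophin receptor (45.82, 39.42 and 44.24 CPM in WT, 45.21, 42.51 and 46.26 CPM in KO EpiLCs), and Zfp87. Zfp369, at the proximal end, had a log2 fold change of 0.05 ± 0.11 (SE) and Zfp87 of 0.28 ± 0.17. Zfp712 and Zfp456 lay just outside the threshold, with adjusted p = 0.108 and 0.106 (edgeR), and fell inside it in the fit with a replicate block (0.06 and 0.067). Zfp456 shares 54.6% of its exonic bases with a gene on the opposite strand, and the strand setting of the counting was not stated. Zfp708 and Zfp429 were too low to be tested, at 0 to 0.08 CPM and at 0.16 to 0.91 CPM. For Zfp708, 96.1% of the exonic bases are shared with genes on the same strand, among them Gm28557 and Rslcan18, so its count may not give its level.

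The members of the large cluster could be compared with other genes in between them. Of the 10 other protein-coding genes tested in the span, most of which are zinc finger genes too, 2 rose (20%, against 11.8% of all genes) and 0 fell. Their median log2 fold change was -0.01. The genes unrelated to zinc fingers passed no test: Uqcrb, a subunit of mitochondrial complex III, was at 101.2 CPM in WT and 99.6 CPM in KO EpiLCs on average, Mterf3, a mitochondrial transcription factor, at 45.5 and 42.4 CPM, and Ptdss1, a phosphatidylserine synthase, at 63.7 and 59.0 CPM. Rsl1, itself a zinc finger gene, was at 4.96 and 5.08 CPM. Gm28557 and Rslcan18, with 9 zinc fingers each and low levels, also passed no test. Their log2 fold changes were -0.19 ± 0.38 and -0.20 ± 0.55 (SE). The pair that rose were further zinc finger genes whose symbols end in a letter, Zfp874a (log2 fold change 0.68) and Zfp729a (0.34), whereas Zfp874b (0.01) and Zfp729b (0.24) passed no test. Of 25 tested genes of other biotypes in the span, such as pseudogenes and long non-coding RNAs, 14 rose and 0 fell, with a median of 0.90. Their share of 56% higher was close to the 54.5% of the members, against 11.8% of all genes. A rise was thus not particular to the members within the span. The difference between the members and these neighbours was not tested.

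**Figure D3:**
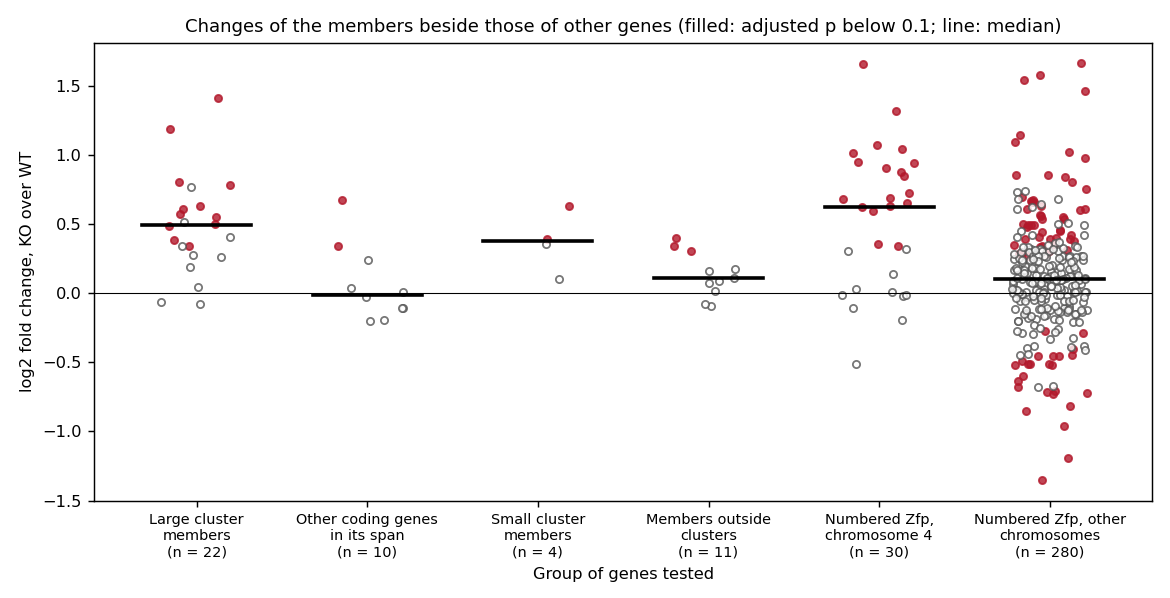
Log2 fold changes (KO over WT, edgeR) of single genes by group, with the number tested under each group; filled points have an adjusted p below 0.1 and lines are medians. Large-cluster members have a median of 0.49, other coding genes between them one of -0.01 and numbered Zfp genes of chromosome 4 one of 0.63. Most of those other coding genes are zinc finger genes too. Genes of other biotypes in the span, with a median of 0.90, are not drawn.

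In the small cluster, Zfp808 and Zfp1008 rose and Zfp935 and Zfp934 passed no test. Zfp1008 had 9.553, 9.673 and 12.11 CPM in WT and 15.56, 18.36 and 14.97 CPM in KO EpiLCs, which gave a log2 fold change of 0.64 ± 0.16 (SE, adjusted p = 0.00932, edgeR). The groups did not overlap. Its longest annotated coding sequence had 106 residues, with a KRAB match and 0 zinc fingers. Zfp808 had 39.7, 35.04 and 55.33 CPM in WT and 57.04, 56.16 and 58.59 CPM in KO EpiLCs, which gave a log2 fold change of 0.40 ± 0.14 (SE, adjusted p = 0.0483, edgeR), and WT replicate 3 came close to the KO libraries. This call was lost without KO replicate 1, KO replicate 3, WT replicate 1 or WT replicate 2 (0.26 to 0.61 over such fits). The annotated protein of Zfp934 was 92.4% identical to that of Zfp808 over 473 aligned residues. Of the exonic stretches of Zfp934, 37.9% were unique against 82.7% for Zfp808, and where the other copies lie was not determined. Zfp934 had a log2 fold change of 0.36 ± 0.18 (SE, adjusted p = 0.194, or 0.0997 with a replicate block, edgeR).

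Outside the clusters 3 of 11 tested members rose (27.3%, against 11.8% of all genes), namely Zfp386 and Zfp277 on chromosome 12 and Zfp367 on chromosome 13. On chromosome 13 alone this was 1 of 7 (14.3%), near the share of all genes. Zfp386, the only KRAB match of chromosome 12, had 34.7, 26.65 and 37 CPM in WT and 48.61, 39.03 and 42.65 CPM in KO EpiLCs, which gave a log2 fold change of 0.40 ± 0.13 (SE, adjusted p = 0.0397, edgeR), lost without KO replicate 1 or WT replicate 2 (0.27 to 0.50 over such fits). It had 2.89 CPM per kb of exon. Zfp277 was the member of chromosome 12 with the highest level per kb of exon (4.07 CPM per kb), with 42.47, 51.92 and 54.11 CPM in WT and 59.47, 69.89 and 59.42 CPM in KO EpiLCs (0.35 ± 0.12, SE, adjusted p = 0.0436, edgeR), lost without KO replicate 2 or WT replicate 1 (0.24 to 0.42 over such fits). Both genes' KO libraries lay above their WT libraries. Zfp367 was nearest to the threshold among those called (0.31 ± 0.12, SE, adjusted p = 0.098, edgeR), its groups overlapped, and the call was lost in 9 alternatives, including DESeq2 and all fits that left out 1 library except WT replicate 3 (0.19 to 0.46 over such fits).

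The remaining members outside clusters passed no test. Zfp410, which activates Chd4, followed Zfp277 on chromosome 12 in level per kb (3.46 CPM per kb) and had a log2 fold change of -0.09 ± 0.12 (SE). Zfp839 had -0.08 ± 0.23. On chromosome 13, Zfp184, Zfp169, Zfp346, Zfp72, Zfp825 and Zfp131 had log2 fold changes of 0.02 to 0.18. Over all genes 11.8% were called higher and 12.5% lower. The 28 tested members with a KRAB match had 14 calls and a median log2 fold change of 0.39, and the 7 tested members with a coding sequence and no match had 2 calls and a median of 0.07. The difference between these was not tested, and a member without a match may still encode a KRAB domain.

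Sequence uniqueness varied among the members. Of the 30 tested members with at least 90% unique exonic stretches of 100 bases, 12 were called, and of the 7 below 90%, 5 were called (Zfp997, Zfp999, Zfp998, Zfp808 and Zfp85). The share called higher over all genes was 11.8%. Across 35 tested members with a coding sequence, Pearson's r between the log2 fold change and the unique share was -0.39 and Spearman's rho -0.21. This left out Zfp999 and Zfp1000, at 67.9% and 70.8% unique. With the number of zinc fingers the same values were 0.14 and 0.19, and with the count of CpG dinucleotides in the promoter window -0.26 and -0.25. These correlations run across genes of the same libraries, which are not independent, and are given as a description. The large-cluster windows had a median of 4 CpG (2 to 16) and those outside clusters 12.5 (2 to 30).

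**Figure D4:**
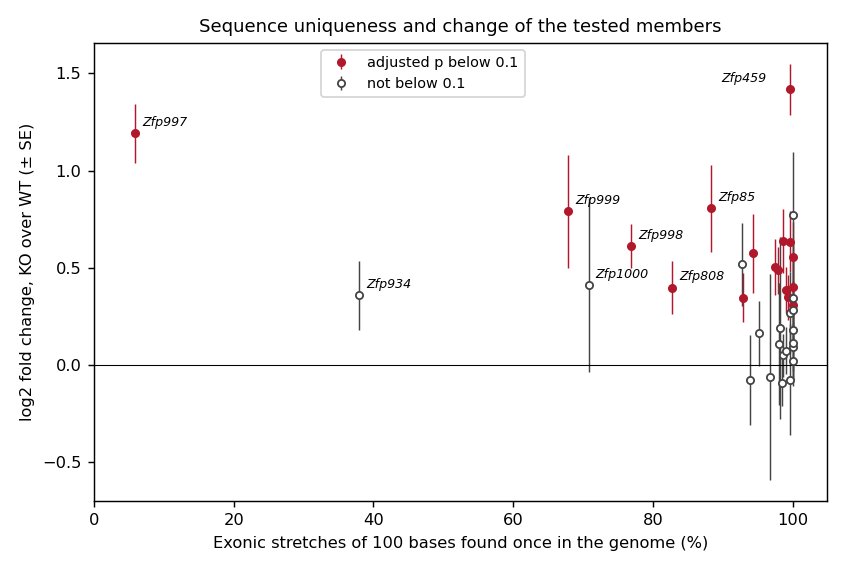
Log2 fold change (KO over WT, with standard error) of the 37 tested members against the percentage of their exonic stretches of 100 bases that occur once in GRCm39. Zfp997 stands apart at 5.87%, and 12 of the 17 called members are at 90% or above.

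Numbered Zfp genes of other chromosomes did not all move in this direction. Of 310 tested, 71 rose (22.9%, against 11.8% of all genes) and 25 fell (8.06%, against 12.5%), with a median log2 fold change of 0.13. Chromosome 4 had 19 of 30 higher (63.3%) and 0 lower with a median of 0.63. Chromosome 6 had 0 of 16 higher and 8 lower (50%) with a median of -0.45. The other genes of chromosomes 12 and 13 had medians of 0.04 and 0.04, with 15.1% and 10.2% of those tested higher. No difference between these groups was tested.

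Called genes of the KAP1 pathway lay in both directions, in shares not far above those of all genes. Of a list of 33 co-repressor components, DNA methylation factors and known KRAB zinc finger proteins, all tested, 6 rose (18.2%, against 11.8% of all genes) and 5 fell (15.2%, against 12.5%). Trim28 itself had a log2 fold change of 0.20 ± 0.10 (SE, adjusted p = 0.18, or 0.0609 with a replicate block, edgeR) and Setdb1 of -0.02 ± 0.09 (adjusted p = 0.914). The genes that rose were Morc3 (0.74), a factor of SUMO-dependent silencing, Tasor (0.57) and Mphosph8 (0.38) of the HUSH silencing complex, the KRAB zinc finger genes Zfp932 (0.36) and Zfp809 (0.30), and the maintenance DNA methyltransferase Dnmt1 (0.23). Those that fell were the remodellers Chd3 (-1.47) and Chd4 (-0.23), the HUSH subunit Pphln1 (-0.74), Resf1 (-0.51), a partner of Setdb1, and the HP1 gene Cbx3 (-0.46). Chd3 had 17.24, 17.89 and 16.44 CPM in WT and 6.076, 4.86 and 7.597 CPM in KO EpiLCs, and Morc3 204.5, 207.6 and 236.2 CPM in WT and 389.1, 351.2 and 342.6 CPM in KO EpiLCs. Neither gene's groups overlapped. With a replicate block 16 of the list were called, the additions being Trim28, Dnmt3a, Dnmt3b, Zfp57 and Zfp445. Only 7 were called without KO replicate 1 or without WT replicate 2. The calls of Chd4 (adjusted p = 0.0825, edgeR) and Dnmt1 (0.0945) were lost in all 6 fits that left out 1 library and with no filter, that of Zfp809 (0.0915) in 4 of those 6, with no filter and with DESeq2, and those of Dnmt1 and Zfp809 also with library totals alone. Zfp932 (0.0616) was lost in 3 of the 6, without KO replicate 1, WT replicate 1 or WT replicate 2, and Mphosph8 (0.029) without WT replicate 2 (0.26).

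Some markers of cell state also differed between the genotypes, where 24.3% of all genes tested were called in either direction. The summed level of 7 formative and general pluripotency genes was 2730 to 3030 CPM in WT and 2680 to 2820 CPM in KO libraries, and Sox2, Fgf5 and Otx2 of them rose. The 6 naive pluripotency genes summed to 185 to 194 CPM in WT and 251 to 320 CPM in KO libraries, with Zfp42 and Esrrb higher. Klf4, Tbx3, Tfcp2l1 and Nr0b1 were tested and not called. The 4 neural genes summed to 44.8 to 49 CPM and 21.5 to 25.1 CPM, with Sox1 and Nes lower and Neurod1 higher. The 4 genes found of the two-cell-like list ranged from 25.3 to 53.2 CPM in WT and from 25.5 to 104 CPM in KO libraries, with Zscan4c and Zscan4d higher and Tcstv3 lower. The 6 primitive endoderm genes summed to 4.46 to 5.15 CPM in WT and 5.01 to 13.8 CPM in KO libraries, with Gata6 and Pdgfra higher. Only 3 of these 6 had enough reads to be tested. The 4 mesoderm genes summed to 5.88 to 6.49 CPM and 8.79 to 11.7 CPM, which did not overlap. Only 1 of them, Eomes, had enough reads to be tested, and it was higher. Every KO library exceeded every WT library for 16.6% of all genes tested. The part of these cell states in the change of the zinc finger genes was not tested, and in bulk RNA fewer cells of a state and less RNA per cell cannot be told apart.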

How the data were processed

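Ribosome-depleted RNA of 6 EpiLC libraries was sequenced in 100 bp pairs, and the authors deposited whole-number read counts per Ensembl gene after FastQC, Fastp and STAR alignment to GRCm39. The STAR version, annotation release, strand setting and treatment of reads with several alignments are not given in the sources used here. The deposited counts were not normalized. Of 55416 identifiers, 54749 matched GENCODE mouse release 39. The members have another identifier version there in 36 of 40 cases, so exon lengths may differ from those counted. The authors' methods name DESeq2, and it was run here as an alternative.

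Counts were fitted with edgeR 4.0.16 (R 4.3.3, TMM factors, filterByExpr, quasi-likelihood test, genotype only) over 15746 genes, and CPM use the same factors. Genes were called at an adjusted p below 0.1. Alternatives were DESeq2 1.42.0, RLE factors, library totals alone, no filter, 10 counts in every library, an adjusted p below 0.05, each library left out and a replicate block. The series description states that the replicates are paired, and same-numbered libraries deviated together (correlations 0.257, 0.298 and 0.122 over 13078 genes, against -0.233 to -0.0379 for different numbers). No library pair agreed within sampling noise. The members and lists were chosen with earlier results of these data known. Named were all members called, with every library's value for the 12 of largest fold change, the 3 of highest level per kb on each chromosome, untested members and called genes of the KAP1 list. The fit was tested on simulated data of 15746 genes. It recovered 29.9%, 77.6% and 98.5% of changes with a log2 fold change of 0.5, 1 and 2, and 6.8% of its calls were false. A gene that passed no test may therefore still differ by about 0.5. Proteins were translated from annotated coding exons, and a zinc finger, the KRAB domain and exonic stretches of 100 bases were searched by pattern or exact match. Counting error and replicate spread together set the precision, and p-values measure the spread between these cultures of 1 line per genotype.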

Additional observations from a re-analysis of the deposited data

How the results depend on the processing

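Of 204 refits of the 17 called members (12 alternatives each), 166 kept the call and the direction, 38 kept the direction and lost the call, and 0 reversed. Under every alternative 0 members were called lower. With fits that left out 1 library the members higher in KO EpiLCs numbered 10 to 17, the numbered Zfp genes of other chromosomes that were lower 16 to 21, and the called genes of the KAP1 list 7 to 12. At an adjusted p below 0.05 the last count was 7 and the members called were 13. The fit with the replicate block called 20 members higher, adding Zfp934, Zfp712 and Zfp456, and changed no other member's call. On the KAP1 list it called 16. DESeq2 called 14. The median log2 fold change of the members stayed between 0.27 and 0.46 and that of the large cluster between 0.45 and 0.62. Leaving out TMM factors shifted the median of all genes by -0.02. Members below 1 CPM, such as Zfp457 and Zfp455, carried standard errors near 0.5 and a difference of the size seen for most called members was not detectable at their depth.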
